A study of Capra hircus with 4 samples.

Results

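Carriers of glucose, lactate and amino acids were followed in stem cells grown in culture from secondary hair follicles, which make the cashmere fibre of the goat Capra hircus. The members were all genes whose symbol places them in the solute carrier (SLC) families SLC1, SLC2, SLC3, SLC6, SLC7, SLC16, SLC36, SLC38 or SLC43. The symbols took 78 of the 20326 genes listed, namely 11 SLC2 genes (glucose and other sugars), 13 SLC16 genes (monocarboxylates such as lactate) and 54 genes of the families grouped as amino acid carriers. The cells came from dorsal skin at mid anagen, sampled in October, and at early anagen, sampled in April, and anagen is the growth phase of the hair cycle. Each phase has 1 female and 1 male library, and all cells were cultured before RNA extraction. The labels give no treatment, age or culture conditions, and call the libraries biological replicates without naming animals.

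Glucose enters most cells by facilitated diffusion through SLC2 carriers, and the lactate made from it leaves with a proton through SLC16 carriers that need the membrane glycoprotein basigin (BSG). Large neutral amino acids are exchanged by heterodimers of a heavy chain, SLC3A2, with a light chain of the SLC7 family, while SLC1 and SLC38 carriers use the sodium gradient or exchange to bring in glutamine, serine, alanine and glutamate. Amino acids that enter this way are sensed by the kinase complex mTORC1, and their lack is answered through the transcription factor ATF4.

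The deposited values carry no stated unit. From their totals and the tools named they were taken as abundances normalised to gene length, and levels are set beside each other between genes on that reading only. A gene was tested if 2 or more libraries reached a value of 1, and the test was limma on log2(value + 1) over all such genes, with Benjamini-Hochberg adjustment. A fold change is mid minus early anagen on that scale, which understates changes at low values. Where a phase has a pair of values, they are those of its female and its male library, in that order. Of the 78 carriers 48 could be tested, and 30 were below the filter. With 2 libraries per phase, an exact two-sided permutation test of a single gene cannot give a p below 0.333. Read depth is unknown, and the p-values measure only the spread between these libraries.

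Markers listed for the tissue were compared between the phases first. Basal keratinocyte markers, led by KRT14 and KRT5, summed to 19032 (mid female) and 20134 (mid male), against 39049 (early female) and 43798 (early male). KRT14 and KRT5 carry that difference, while the median log2 fold change of the 6 markers was -0.25, ITGA6, COL17A1 and TP63 overlapped between the phases and none passed. Bulge stem cell markers summed to 369 and 374 at mid anagen, against 175 and 129 at early anagen. In all 8 both mid libraries were above both early ones, against 31.5% of all tested genes, with a median log2 fold change of 1.67. LHX2 in that list was called higher (limma adjusted p = 0.0431). Fibroblast and dermal papilla markers summed to 361 and 348 at mid anagen, against 21.4 and 81.1 at early anagen, most of it VIM. Of the 10, 8 could be tested, 7 of them kept only through the mid libraries and so bound to be higher, and FBN1, the 1 past the test, is among these 7. Apart from VIM, these markers were highest in the mid female library. COL1A1 was at 58.6 and 19.8 at mid anagen, against 0.179 and 0.987 at early anagen, and DCN at 21.0 and 3.38, against 0 and 0.0774. Melanocyte markers summed to 5.80 to 7.23 in every library with DCT at 0, immune markers to 3.12 to 4.91 with PTPRC at 0, and endothelial markers to 0.466 to 0.887 with CDH5 at 0. The part of these marker differences in the carrier values below was not tested. In bulk libraries, fewer cells of a type and less RNA per cell cannot be told apart.

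No carrier passed the test between mid and early anagen, which had phase as its only term. Phase and month of sampling coincide in these libraries and cannot be told apart. Limma called 0 of 48 carriers at an adjusted p of 0.05, where 0.304% of all 12486 tested genes were called (0.224% higher and 0.0801% lower at mid anagen), and 13 carriers (27.1%) had an unadjusted p under 0.05 against 27.9% of all genes. Without the mid female library, limma called 3 carriers, SLC6A6, SLC43A2 and SLC38A3, with 5.87% of all genes called, and of these SLC38A3 was kept only through the mid libraries. Without the mid male library it called SLC2A11 and SLC6A6, with 2.96% of all genes called, and without either early library it called 0. With a further term for replicate number, which follows sex, limma called 9 carriers, 8 higher and SLC16A3 lower, with 14.3% of all genes called. Among the 8, SLC38A3 was kept only through the mid libraries. When each library was rescaled to a common total, 4 carriers were called higher, SLC6A6, SLC43A1, SLC43A2 and SLC1A1, with 5.19% of all genes called. Under that rescaling the middle fold change over the whole table was 0.32, where it was 0.01 as deposited, so values after rescaling are to be read against that shift.

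The carriers lay more often on the higher side at mid anagen. In 20 of the 48 tested carriers both mid libraries were above both early libraries (41.7%, against 31.5% of all tested genes), and in 5 both were below (10.4%, against 30.9%). Without SLC38A3, which reached 1 in the mid libraries alone and so had to be higher, it was 19 of 47 (40.4%). The phases did not overlap in 25 carriers (52.1%), fewer than the 62.3% of all tested genes. The median log2 fold change was 0.31 over the tested carriers and 0.01 over all tested genes. By class it was 0.27 over 7 SLC2 genes, 0.32 over 10 SLC16 genes and 0.32 over 31 amino acid carriers. Without SLC38A3 the amino acid median was 0.31. Over the classes together the shift was also present at higher levels, with a median of 0.27 over the 33 tested carriers with a mean of at least 5. All genes with such a mean had a median of -0.02. By class this did not hold for SLC16. With a value of at least 5 required in 2 or more libraries, the median was 0.05 over 5 SLC16 genes. It was 0.27 over 5 SLC2 genes and 0.35 over 25 amino acid carriers. These medians describe the list and were not tested.

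**Figure D1:**
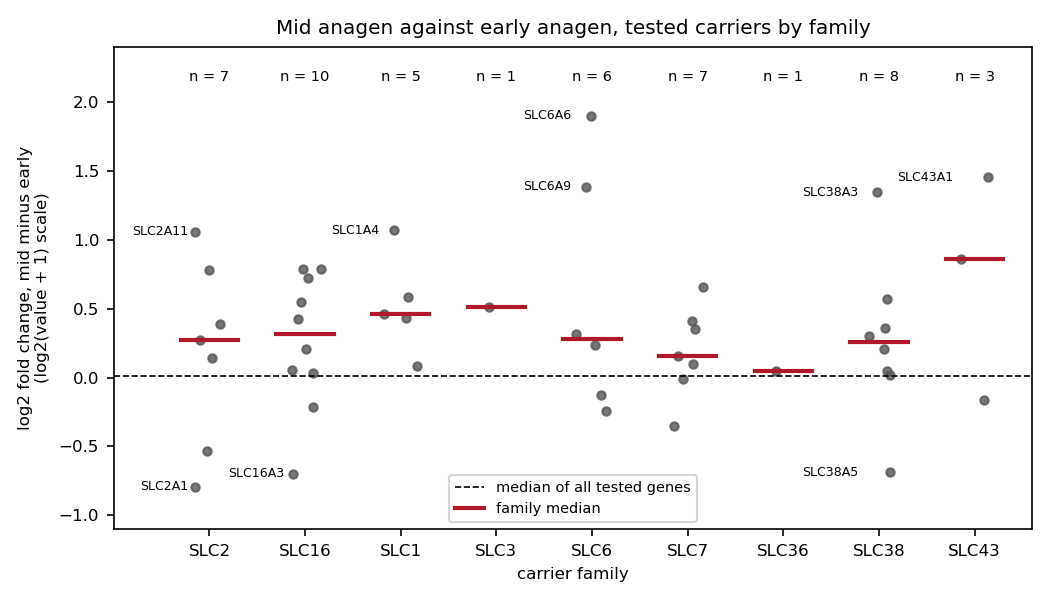
Log2 fold change of each tested carrier, mid minus early anagen, by family, on the log2(value + 1) scale. Each point is a gene, red bars are family medians and the dashed line is the median of all tested genes (0.01). SLC2A1 at -0.79 and SLC16A3 at -0.70 lie at the low end of families whose medians are above 0.

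Facilitative glucose carriers were dominated by SLC2A1, the widely expressed carrier of basal glucose uptake (GeneID 102174800). SLC2A1 was at 684 (mid female) and 712 (mid male), against 1309 (early female) and 1119 (early male). Both mid libraries lay below both early libraries, with the sexes in opposite order in the phases. The log2 fold change was -0.79 (SE 0.23, limma adjusted p = 0.108, n = 2 per phase), and -0.45 after rescaling to a common total. SLC2A1 held 91.9% and 93.5% of the summed SLC2 level at mid anagen, against 97.0% and 96.4% at early anagen. In the RefSeq table the span of SLC2A1 overlaps that of LOC102183480, a protein-coding gene without a description in the files, at 306 and 185 at mid anagen and 698 and 484 at early anagen. The sources used here give no strand setting, so reads of these neighbours may not be separable.

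The summed level of all 11 SLC2 genes was 744 (mid female) and 762 (mid male), against 1350 (early female) and 1161 (early male). The other SLC2 genes that could be tested were low, and most of them were on the other side. SLC2A3, a high-affinity glucose carrier, was at 15.9 and 10.4 at mid anagen, against 9.05 and 10.2 at early anagen (log2 fold change 0.39, SE 0.23, limma adjusted p = 0.313). The mid male and early male values of SLC2A3 nearly coincide, and the female libraries are further apart. Without the mid female library it was 0.10. The ratio of SLC2A1 to SLC2A3 was 43.1 and 68.7 at mid anagen, against 145 and 110 at early anagen.

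SLC2A12, another hexose carrier, was at 17.0 and 17.8 at mid anagen, against 14.0 and 14.5 at early anagen, a narrow spread within each phase (log2 fold change 0.27, SE 0.14, limma adjusted p = 0.253). SLC2A11 was at 12.0 and 5.52 at mid anagen, against 4.25 and 2.72 at early anagen (log2 fold change 1.06, SE 0.37, limma adjusted p = 0.145). The mid female library stands above the other libraries for SLC2A11, and without it the fold change was 0.56. Leaving out the mid male library gave 1.56. SLC2A8, an intracellular glucose carrier, was at 8.34 and 9.64 at mid anagen, against 7.30 and 8.80 at early anagen, and the phases overlapped.

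At lower levels, SLC2A13, a proton-coupled carrier of myo-inositol, was at 2.48 and 2.68 at mid anagen, against 1.02 and 1.15 at early anagen. The female pair and the male pair each gave a fold change of 0.78 (limma adjusted p = 0.088), and it was 0.40 with the trend on genomic span removed. SLC2A9, a urate carrier, was at 3.23 and 1.95 at mid anagen, against 3.79 and 4.44 at early anagen (adjusted p = 0.212), with a fold change of -0.53, and -0.27 without the mid male library. SLC2A13 was therefore higher and SLC2A9 lower in both mid libraries, without passing the test. SLC2A4, the insulin-responsive glucose carrier, reached at most 0.658 in any library, SLC2A10 0.708, SLC2A6 0.575 and SLC2A2, the liver-type carrier, 0.0148.

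Monocarboxylate carriers showed opposite sides for the lactate exporter and several lower members. SLC16A3, the carrier associated with lactate export from glycolytic cells (GeneID 102177468), was at 80.7 (mid female) and 76.3 (mid male), against 132 (early female) and 124 (early male). The phases were well apart, and the fold change was nearly the same for the female (-0.70) and the male pair (-0.69). Over both pairs it was -0.70 (SE 0.15, limma adjusted p = 0.0811), and -0.36 after rescaling to a common total. SLC16A1, the broadly expressed lactate and pyruvate carrier, was at 61.1 and 37.3 at mid anagen, against 55.6 and 55.2 at early anagen. The mid libraries of SLC16A1 lie on either side of the early ones, and its fold change of -0.21 (adjusted p = 0.615) became 0.12 after rescaling to a common total and 0.14 without the mid male library. The ratio of SLC16A3 to SLC16A1 was 1.32 and 2.05 at mid anagen, against 2.37 and 2.24 at early anagen.

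BSG, the partner that brings both of these carriers to the membrane, was at 590 and 606 at mid anagen, against 567 and 720 at early anagen (log2 fold change -0.09, limma adjusted p = 0.81). EMB, embigin, a related partner protein, was at 4.80 and 2.23 at mid anagen, against 0.954 and 0.0916 at early anagen (log2 fold change 1.57, adjusted p = 0.0955). EMB reached 1 only in the mid libraries, so its direction was fixed by the filter. Summed over the 13 genes, the SLC16 level was 215 (mid female) and 183 (mid male), against 244 (early female) and 237 (early male).

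SLC16A5 was at 31.7 and 35.1 at mid anagen, against 32.1 and 32.2 at early anagen, and SLC16A14 was at 8.39 and 8.36, against 4.77 and 10.4. Neither showed a separation of the phases. Of the tested SLC16 members with a mean under 5, SLC16A11 was at 4.49 and 3.43 at mid anagen, against 2.77 and 1.36 at early anagen (adjusted p = 0.173), and was the only one of them at an unadjusted p under 0.05. SLC16A7, SLC16A6, SLC16A10, the aromatic amino acid carrier, and SLC16A4 had fold changes between 0.03 and 0.79. The span of SLC16A6 overlaps that of ARSG, at 1.82 and 2.03 at mid anagen, against 0.764 and 0.493 at early anagen. That of SLC16A10 overlaps LOC108636724, at 2.59 to 3.48. Reads of these neighbours may not be separable. SLC16A8, SLC16A9 and SLC16A12 were below the filter, and SLC16A9, a carnitine carrier, was at 1.11 in the mid female library and at 0.117 or less in the others.

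The heavy chain SLC3A2 and its main light chain SLC7A5, which together exchange large neutral amino acids such as leucine, were the most abundant amino acid carriers. SLC7A5 (GeneID 102186985) was at 735 (mid female) and 543 (mid male), against 689.9 (early female) and 355 (early male). SLC3A2 (GeneID 102187568) was at 571 and 406 at mid anagen, against 452 and 250.4 at early anagen. For both genes the phases overlapped, with the female library above the male library in each phase and the early male library the lowest. The log2 fold change was 0.35 (SE 0.37, limma adjusted p = 0.57) for SLC7A5 and 0.51 (SE 0.35, adjusted p = 0.372) for SLC3A2. Without the early male library these were -0.13 and 0.09.

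SLC7A5 and SLC3A2 kept a similar ratio, at 1.29 and 1.34 at mid anagen, against 1.53 and 1.42 at early anagen. The sum of the 6 light chains that pair with SLC3A2 (SLC7A5, SLC7A6, SLC7A7, SLC7A8, SLC7A10 and SLC7A11) was 1.36 and 1.45 times SLC3A2 at mid anagen, against 1.61 and 1.58 times at early anagen. SLC3A1, the heavy chain known from kidney and gut, reached at most 0.406.

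SLC7A11, the light chain that imports cystine, was at 15.3 and 13.7 at mid anagen, against 14.6 and 5.22 at early anagen (log2 fold change 0.65, limma adjusted p = 0.357). The early male library alone was low, and without it the fold change was -0.01. SLC7A6 was at 11.4 and 8.59 at mid anagen, against 7.97 and 9.71 at early anagen. SLC7A7 was at 11.8 and 10.7, against 11.7 and 18.2, and SLC7A8, a broad neutral amino acid light chain, at 5.53 and 13.2, against 5.27 and 7.42. Without the mid male library the fold change of SLC7A8 was -0.16, and without the early male library that of SLC7A7 was -0.05. In none of these light chains were the phases apart.

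Among the cationic amino acid carriers, SLC7A1, the main arginine and lysine carrier of many cells, was at 73.7 and 82.9 at mid anagen, against 90.7 and 68.1 at early anagen. The female pair gave a fold change of -0.30 and the male pair 0.28, with -0.01 over both (limma adjusted p = 0.982) and 0.33 after rescaling to a common total. SLC7A4, an orphan member of that branch, was at 10.8 and 16.2 at mid anagen, against 11.4 and 13.4 at early anagen. In the SLC7 family as a whole, 0 of 7 tested members had phases that did not overlap, against 62.3% of all tested genes. SLC7A2, SLC7A3, SLC7A10 and SLC7A14 were below the filter. The gene descriptions name 16 loci as cationic amino acid transporter 3 or similar to it. Whether SLC7A3 (at most 0.795) shares reads with these loci was not tested, and no sequences were compared.

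In 4 of the 5 tested SLC1 carriers both mid libraries were above both early libraries, against 31.5% of all tested genes, with none past the test. SLC1A5, the exchanger of glutamine and other neutral amino acids (GeneID 102176550), was at 317 (mid female) and 303 (mid male), against 254 (early female) and 206 (early male). Its log2 fold change was 0.44 (SE 0.19, limma adjusted p = 0.209), with 0.28 without the early male library and 0.78 after rescaling to a common total. SLC1A1, a glutamate and cysteine carrier, was at 76.6 and 73.5 at mid anagen, against 45.5 and 54.1 at early anagen (log2 fold change 0.59, SE 0.16, adjusted p = 0.1), and after rescaling to a common total it was 0.92 (adjusted p = 0.0455). Within each phase the SLC1A1 libraries were close, and the phases were apart.

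SLC1A4, a carrier of serine, alanine and cysteine, was at 47.5 and 45.8 at mid anagen, against 38.1 and 12.2 at early anagen. Its fold change was 1.07 on the log2 scale (SE 0.49, limma adjusted p = 0.223), from 0.31 for the female and 1.83 for the male pair, and 0.28 without the early male library. SLC1A3, the glutamate carrier best known from glia, was at 4.41 and 3.66 at mid anagen, against 2.86 and 2.43 at early anagen (adjusted p = 0.181). SLC1A7 was at 1.42 to 1.72 in all libraries. The neuronal and glial carriers SLC1A2 and SLC1A6 were listed at 0 in 3 and in 4 libraries.

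**Figure D2:**
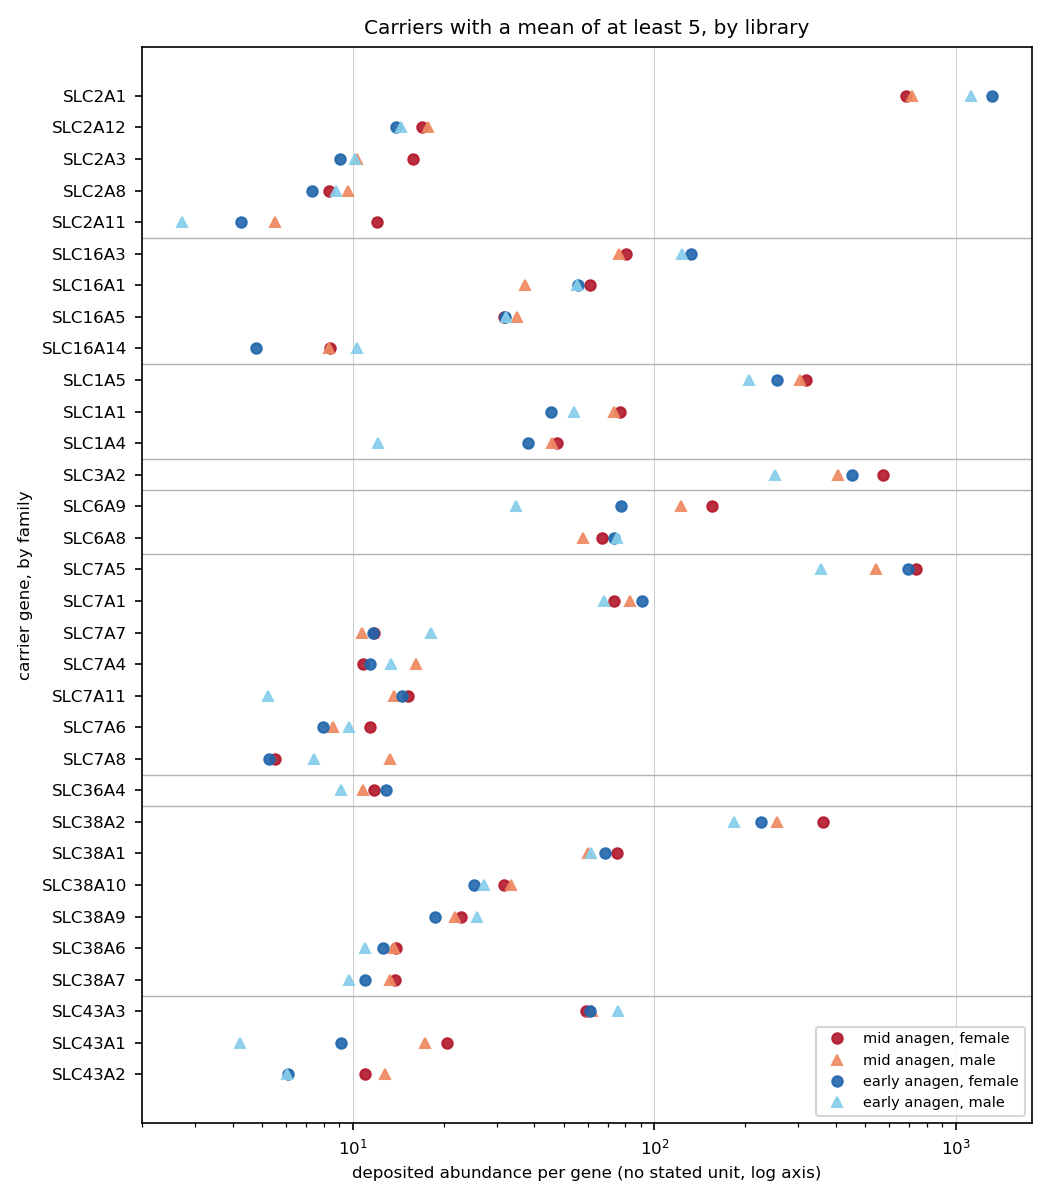
Deposited abundance in each library (log axis) for carriers with a mean of at least 5, by family. Red and orange symbols are the mid anagen female and male libraries, and dark and light blue the early anagen female and male libraries. SLC2A1 and SLC16A3 have both mid libraries to the left of both early ones, while SLC1A4, SLC6A9, SLC7A11 and SLC43A1 have the early male library as the lowest point.

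The SLC6 family holds carriers of glycine, taurine and creatine as well as of neurotransmitters. SLC6A9, a glycine carrier (GeneID 102190843), was at 155 (mid female) and 122 (mid male), against 77.7 (early female) and 34.8 (early male). The phases were apart and the early libraries differed by more than the mid ones. The log2 fold change was 1.39 (SE 0.39, limma adjusted p = 0.104), with 0.99 in the female pair, 1.78 in the male pair and 0.82 without the early male library. The span of SLC6A9 overlaps that of CCDC24, which was at 1.65 to 2.86. SLC6A8, the creatine carrier, was at 67.0 and 57.9 at mid anagen, against 73.2 and 74.9 at early anagen (log2 fold change -0.25, adjusted p = 0.343), and 0.09 after rescaling to a common total.

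SLC6A6, the taurine carrier, had the smallest p of all carriers and is singled out after its values were seen. SLC6A6 was at 6.51 (mid female) and 8.61 (mid male), against 1.59 (early female) and 0.995 (early male). Both mid libraries were several times above both early ones. The log2 fold change was 1.90 (SE 0.23, limma adjusted p = 0.0551), with 1.54 for the female and 2.27 for the male pair. It passed after rescaling to a common total (limma adjusted p = 0.0327). The fold change of SLC6A6 was 2.08 without the mid female library and 1.72 without the mid male library. It was 2.09 without the early female library and 1.71 without the early male library.

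SLC6A14, a broad carrier of neutral and basic amino acids, was at 3.20 and 6.60 at mid anagen, against 2.07 and 6.46 at early anagen, with the male library above the female library in each phase. SLC6A4, the serotonin carrier, was at 2.57 and 3.04, against 3.96 and 2.47. SLC6A20, a proline carrier, was at 0.935 and 1.35, against 1.05 and 0.433. The remaining 12 SLC6 genes were below the filter, with 0.870 of SLC6A17 (mid male) as the highest value. SLC6A11, SLC6A15 and SLC6A16 were listed at 0 in every library.

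In the SLC38 family, most of whose known members are sodium-coupled, 5 of 8 tested members had both mid libraries above both early ones, or 4 of 7 (57.1%) without SLC38A3, against 31.5% of all tested genes, and 1, SLC38A5, had both below. SLC38A2, a carrier of alanine and glutamine known to be induced by amino acid lack (GeneID 102191114), was at 361 (mid female) and 255 (mid male), against 226 (early female) and 183 (early male) (log2 fold change 0.57, SE 0.24, limma adjusted p = 0.195). Without the mid female library it was 0.32. SLC38A1, the related glutamine carrier, was at 75.4 and 60.0 at mid anagen, against 68.7 and 61.7 at early anagen. The phases of SLC38A1 overlapped, and its fold change of 0.05 (adjusted p = 0.887) was -0.12 without the mid female library.

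The 4 further SLC38 members with a mean of at least 5 lay at 9.73 to 33.4. SLC38A9, the lysosomal arginine sensor upstream of mTORC1, was at 22.9 and 21.7 at mid anagen, against 18.7 and 25.8 at early anagen (log2 fold change 0.02, limma adjusted p = 0.952), and -0.13 with the trend on genomic span removed. SLC38A7, a lysosomal glutamine carrier, was at 13.8 and 13.2 at mid anagen, against 10.96 and 9.73 at early anagen (adjusted p = 0.187). SLC38A10 was at 31.8 and 33.4, against 25.2 and 27.2 (adjusted p = 0.221), and SLC38A6 at 13.9 and 13.7, against 12.6 and 11.02. In the last 3 both mid libraries were above both early ones by small amounts. The span of SLC38A6 overlaps that of TRMT5, at 16.6 and 14.2 at mid anagen, against 17.1 and 18.8 at early anagen, and their reads may not be separable. SLC36A4, the single tested proton-coupled carrier, was at 11.8 and 10.8 at mid anagen, against 12.9 and 9.15 at early anagen, with overlapping phases.

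At low levels, SLC38A5, a carrier of glutamine and glycine, was at 1.23 and 1.19 at mid anagen, against 2.29 and 2.84 at early anagen (log2 fold change -0.69, SE 0.20, limma adjusted p = 0.111), and was the only amino acid carrier at an unadjusted p under 0.05 on the lower side. SLC38A3, a glutamine carrier, was at 1.53 and 3.25 at mid anagen, against 0.372 and 0.210 at early anagen (adjusted p = 0.0845). SLC38A3 is the member kept only through the mid libraries, and its direction was fixed by that, so its values support no direction. SLC38A4, SLC38A8, SLC38A11 and SLC36A2 were below the filter, at 0.469 or less.

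SLC43A1 and SLC43A2, sodium-independent carriers of leucine and other large neutral amino acids, were among the carriers with the smallest p. SLC43A2 was at 10.998 (mid female) and 12.7 (mid male), against 6.12 (early female) and 6.03 (early male). The early libraries nearly coincide, and the log2 fold change was 0.86 (SE 0.15, limma adjusted p = 0.0724). It passed after rescaling to a common total (limma adjusted p = 0.0468), and its fold change was 0.96 without the mid female library. SLC43A1 was at 20.5 and 17.4 at mid anagen, against 9.12 and 4.23 at early anagen (log2 fold change 1.45, SE 0.33, adjusted p = 0.0835). It was 0.98 without the early male library, and passed after rescaling to a common total (adjusted p = 0.0472). SLC43A3, which is known as a purine nucleobase carrier, was at 59.3 and 62.1 at mid anagen, against 61.0 and 75.9 at early anagen, with a fold change of -0.16 (adjusted p = 0.565) as deposited and 0.18 after rescaling to a common total.

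Female and male pairs had the same direction for 34 of the 48 tested carriers, 28 higher and 6 lower, and differed for 14 (29.2%). Over all tested genes 39.3% were higher in both pairs, 37.1% lower in both and 23.5% differed, so the share that differed was near that of all genes. The 6 lower in both pairs were SLC2A1, SLC16A3, SLC2A9, SLC38A5, SLC6A8 and SLC43A3. Kinship or shared handling of the paired libraries is not described, and each sex has 1 library per phase, so a difference between the sexes could not be tested. Summed over all 54 amino acid carriers, the level was 2745 (mid female) and 2229 (mid male), against 2242 (early female) and 1543 (early male). The early male library was thus the lowest, and the mid male and early female libraries were alike in this sum. All 78 carriers took 0.397% and 0.376% of the total at mid anagen, against 0.359% and 0.248% at early anagen.

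**Figure D3:**
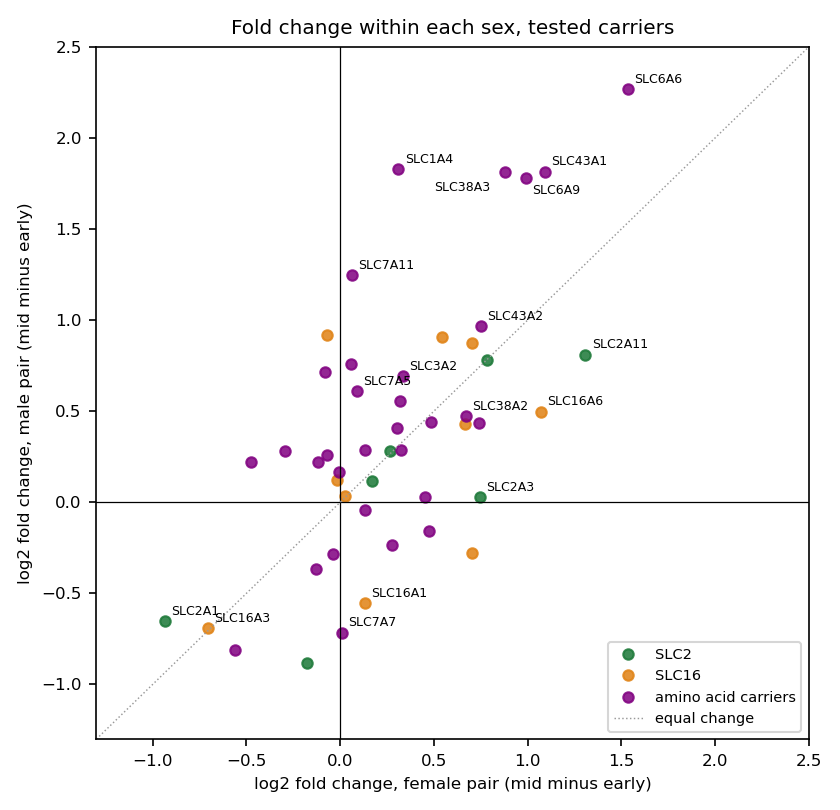
Log2 fold change (mid minus early anagen) of each tested carrier in the male pair against the female pair, on the log2(value + 1) scale, coloured by class, with a dotted line where both are equal. SLC2A1 and SLC16A3 lie below 0 in both pairs. SLC1A4 lies at 0.31 for the female and 1.83 for the male pair, and SLC7A11 at 0.06 and 1.25.

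Genes of the response to amino acid lack were compared with the carriers, from a list of 17. In this list 0 genes passed between the phases, 8 had both mid libraries above both early ones (47.1%, against 31.5% of all tested genes) and 0 had both below (against 30.9%), with a median log2 fold change of 0.57. The phases were apart in fewer of these genes than in the whole table (47.1%, against 62.3%). In 12 genes the female and the male pair were both higher at mid anagen, in 2 both were lower and in 3 they differed. Over all tested genes these shares were 39.3%, 37.1% and 23.5%. The 2 lower ones in the list were DDIT4 and SHMT2, with log2 fold changes of -0.49 and -0.31 and overlapping phases. PHGDH, the first enzyme of serine synthesis, was at 469 and 387 at mid anagen, against 296 and 108 at early anagen (limma adjusted p = 0.167). ASNS, asparagine synthetase, was at 404 and 300.5, against 294 and 143 (adjusted p = 0.249). NUPR1, SESN2 and ATF3 had the smallest p of the list, with adjusted values of 0.0915, 0.105 and 0.136. ATF4 itself was at 1213 and 926 at mid anagen, against 1041 and 890.2 at early anagen, with overlapping phases (adjusted p = 0.76).

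The same list was low in the male library at early anagen. In 16 of 17 genes the early male library was below the early female library, with a median log2 difference of -0.89, against 46.8% of all tested genes and a median of 0.02. At mid anagen 14 of 17 were lower in the male library, with a median of -0.43, against 51.6% of all tested genes and a median of -0.01. Of the 48 tested carriers 29 were below in the early male library (median -0.16), and 29 in the mid male library (median -0.06). SLC1A4 at -1.57 and SLC7A11 at -1.32 had the largest gaps on the lower side between the early libraries and were picked by that gap. On the higher side, SLC6A14 was at 1.28 and SLC16A14 at 0.98. Each of these differences compares a single library with another, so sex, animal and library cannot be told apart.

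**Figure D4:**
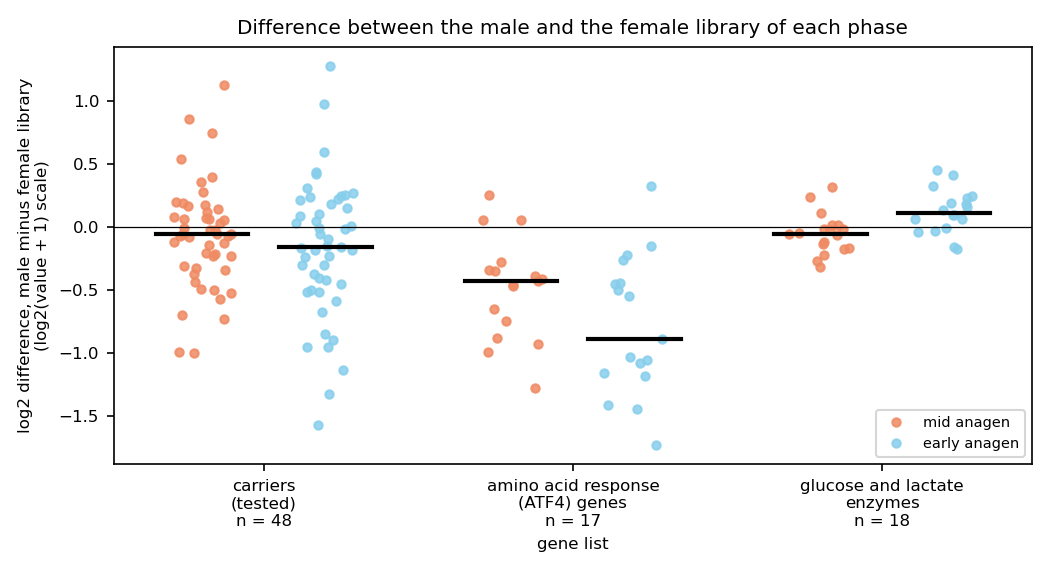
Log2 difference between the male and the female library of each phase (log2(value + 1) scale) for the 48 tested carriers, 17 amino acid response genes and 18 enzymes of glucose and lactate metabolism. Points are genes and black bars medians, with mid anagen left of early anagen in each list. The carriers have a median of -0.06 at mid and -0.16 at early anagen. The amino acid response genes have a median of -0.43 at mid and -0.89 at early anagen, while the enzymes have medians of -0.05 and 0.11.

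Enzymes downstream of the glucose carriers lay on the same side as SLC2A1 and SLC16A3. Of 18 tested enzymes and pyruvate carrier subunits, 16 had both mid libraries below both early ones, against 30.9% of all tested genes, and the median log2 fold change was -0.59, with 0 past the test. PDK1, which restrains pyruvate oxidation, was at 17.2 and 13.6 at mid anagen, against 33.7 and 30.1 at early anagen (limma adjusted p = 0.0724). GPI, the isomerase that follows hexokinase, was at 251 and 253, against 417 and 522 (adjusted p = 0.0837), and PFKFB3, an activator of glycolytic flux, at 21.1 and 22.9, against 33.1 and 35.4 (adjusted p = 0.0841). PFKM was the exception that had both mid libraries above, at 4.27 and 4.19, against 3.23 and 2.74. LDHA and PFKL were not found by symbol.

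RNA levels of genes for proteins that control carriers at the membrane were compared as well. Of 11 tested partner and trafficking genes, 0 passed, 6 had both mid libraries above both early ones and 1 had both below. The phases were apart in 63.6% of them, near the 62.3% of all tested genes, and without EMB 5 of 10 were above, against 31.5%. ARRDC3, an arrestin-like adaptor, was at 31.8 and 29.4 at mid anagen, against 12.5 and 12.9 at early anagen (log2 fold change 1.20, limma adjusted p = 0.0551). ARRDC4 was at 34.4 and 17.2, against 7.33 and 3.69 (log2 fold change 2.02, adjusted p = 0.077). TXNIP, the related protein known to promote internalisation of SLC2A1, was at 91.1 and 32.7 at mid anagen, against 29.9 and 14.7 at early anagen (log2 fold change 1.34, adjusted p = 0.184). TXNIP and ARRDC4 were thus on the opposite side to SLC2A1, with the male library below the female library in each phase.

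Genes of amino acid sensing by mTORC1 showed no common side. Of 27 tested, 0 passed, 9 had both mid libraries above both early ones and 9 had both below (33.3% each, near the 31.5% and 30.9% of all tested genes), and the median log2 fold change was -0.02. SESN3, a sestrin, was at 38.7 and 33.4 at mid anagen, against 13.0 and 4.19 at early anagen (limma adjusted p = 0.0808). MTOR itself was at 40.8 and 37.6, against 27.4 and 28.0 (adjusted p = 0.109), while the complex member MLST8 was at 21.9 and 22.6, against 30.9 and 34.9 (adjusted p = 0.0986), and RRAGB at 10.2 and 8.40, against 6.08 and 5.15 (adjusted p = 0.102). Of the sestrins, SESN2, a leucine sensor, was at 83.4 and 65.4 at mid anagen, against 49.7 and 36.1 at early anagen. At an unadjusted limma p under 0.05, 4 genes of the list were higher and 5 lower at mid anagen. Over all 12486 tested genes, 1644 were higher and 1838 lower at that p, together 27.9%. The 5 lower ones in the list were MLST8, LAMTOR2, LAMTOR4, LAMTOR5 and RHEB. RHEB was at 320 and 164 at mid anagen, against 411 and 449 at early anagen.

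Of 15 tested enzymes of glutamine and branched-chain amino acid metabolism, 0 passed, with 5 above and 4 below in both mid libraries (33.3% and 26.7%, near the 31.5% and 30.9% of all tested genes). BCAT1, a branched-chain aminotransferase, was at 7.29 and 4.48 at mid anagen, against 2.64 and 0.459 at early anagen (limma adjusted p = 0.118). GPT2, which makes alanine, was at 118 and 98.9, against 65.1 and 18.2 (adjusted p = 0.145), again with the early male library lowest. BCKDHB, a subunit of the branched-chain keto acid dehydrogenase, was at 37.7 and 34.1, against 47.2 and 46.4 (adjusted p = 0.166). Among 13 tested carriers of sugars and amino acids outside the named families, 0 passed, and the median log2 fold change was -0.12. In 1 of them both mid libraries were above both early ones (7.69%, against 31.5% of all tested genes). In 4 both were below (30.8%, against 30.9%). SLC25A15 and SLC25A13, both lower at mid anagen, and SLC5A3, higher, had the smallest limma p, with adjusted values of 0.122, 0.128 and 0.19.

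The symbols leave out 27 loci that the files describe as carriers of these families without a family symbol, of which 4 could be tested. LOC102191423, described as proton-coupled amino acid transporter 1, was at 19.0 and 17.1 at mid anagen, against 13.7 and 10.8 at early anagen. LOC102180151, described as monocarboxylate transporter 13, was at 7.53 and 7.02, against 6.24 and 5.36. LOC102169897, described as similar to cationic amino acid transporter 3, was at 4.997 and 7.40, against 2.90 and 3.40. These 3 had both mid libraries above both early ones. LOC102191549, also described as similar to cationic amino acid transporter 3, was at 1.95 and 2.70, against 2.11 and 2.27, and overlapped. All 4 were named after their values were seen, and 31.5% of all tested genes were above in this way.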

How the data were processed

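RNA from cultured secondary hair follicle stem cells was isolated by a TRIzol method, and an NEB Ultra kit turned it into cDNA libraries, per the labels' protocols. The deposited values are a signal, read from the values as a length-normalised abundance per gene, since no unit is stated, with totals of 844960 to 1186966 per library. Tools named, per the submitters' processing notes, are kallisto 0.46.1 and sleuth 0.30.0. For the reference, its build, any strand setting and the summing of transcripts, the entry is: not given in the sources used here. Depth is unknown, so no counting interval is given.

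On the log2(value + 1) scale, limma 3.58.1 under R 4.3.3 (intensity trend, phase as the only term) was fitted to the 12486 genes that reached 1 in 2 or more libraries, with Benjamini-Hochberg adjustment and a threshold of 0.05. The fit was checked on simulated data. Carriers were taken by symbol. All 78 matched a RefSeq gene table (assembly ARS1.2), used for spans and overlaps only, and 3 have no chromosome there. Members, gene lists and the rule for named genes (carriers with a mean of at least 5, called genes, SLC3A2, SLC2A1, and up to 3 genes per further list) were chosen with earlier results of these data known. Some genes that this rule takes are not reported here. Other genes were named after their values were seen. Alternatives were pseudocounts of 0.1 and 5, other filters, a common total, removal of the trend on genomic span, no intensity trend, a replicate block and leaving out each library.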

Additional observations from a re-analysis of the deposited data

Results flagged for a closer look

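In 14 of the 48 tested carriers the log2 fold change, mid minus early anagen, had opposite signs in the female and the male pair (29.2%), near the 23.5% of all tested genes. With 1 library per sex and phase the difference between the pairs was not tested. The groups of 2 libraries are too small for a check of single outlying libraries.

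Some of these carriers were higher at mid anagen in the female pair and lower in the male pair. SLC16A1 was at 0.13 in the female and -0.55 in the male pair, SLC7A6 at 0.47 and -0.16, and SLC16A14 at 0.70 and -0.28. SLC7A7 was at 0.01 in the female and -0.71 in the male pair, SLC38A9 at 0.28 and -0.23, and SLC38A1 at 0.13 and -0.040. The other 8 were lower in the female pair and higher in the male pair. SLC7A1 was at -0.30 in the female and 0.28 in the male pair, SLC6A4 at -0.48 and 0.22, and SLC36A4 at -0.12 and 0.22. SLC16A10 was at -0.07 and 0.92, SLC6A20 at -0.08 and 0.72, and SLC7A4 at -0.07 and 0.26. SLC16A5 was at -0.02 and 0.12, and SLC1A7 at -0.01 and 0.17.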

How the results depend on the processing

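Of all tested genes limma called 38, and 18 with a pseudocount of 0.1, 0 with no filter (3843 at an unadjusted p under 0.05), 648 with a common total and 0 to 733 with 1 library left out. Of the carriers it called 0, 4 with a common total and 0 to 3 with 1 library left out. The replicate number follows sex, and nothing shows that same-numbered libraries share an animal. Their deviations from the phase means correlated at 0.29 over all tested genes and 0.36 over the carriers. With the replicate block 1782 genes (14.3%) and 9 carriers were called, SLC16A3 lower and SLC16A7, SLC2A11, SLC2A13, SLC38A3, SLC43A1, SLC43A2, SLC6A6 and SLC6A9 higher. The SLC2 median was 0.60 with a common total. The SLC16 median was 0.42 and 0.14 with pseudocounts of 0.1 and 5, 0.21 with no filter, 0.054 with a minimum of 5, 0.57 with a common total, 0.22 with the span trend removed and 0.22 to 0.28 with 1 library left out. The amino acid carrier median was 0.13 with no filter and 0.64 with a common total. A common total turned the sign of SLC16A1 (0.12), SLC43A3 (0.18), SLC6A4 (0.13), SLC6A8 (0.092) and SLC7A1 (0.33). Removing the span trend turned SLC38A9 (-0.13) and SLC38A1 (-0.069). Leaving out 1 library gave fold changes that crossed 0. They ran from -0.56 to 0.14 for SLC16A1, -0.032 to 0.34 for SLC7A6, -0.39 to 0.13 for SLC6A4, -0.28 to 0.70 for SLC16A14, -0.018 to 0.13 for SLC16A5 and -0.16 to 0.97 for SLC7A8. They ran from -0.17 to 0.37 for SLC7A4, -0.18 to 0.28 for SLC36A4, -0.087 to 0.15 for SLC16A4, -0.13 to 0.83 for SLC7A5 and -0.21 to 0.20 for SLC7A1. They ran from -0.0077 to 1.32 for SLC7A11, -0.20 to 0.24 for SLC38A9, -0.40 to 0.88 for SLC6A14 and -0.12 to 0.21 for SLC38A1. The cause was not tested. Where 1 library was left out, its phase had a single library, assumed to vary like the other phase. Depth is unknown, so the precision of low values cannot be given.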
